A study of Mus musculus with 2 samples.

Results

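The genes described here are 33 mouse genes of glycolysis, of the fate of pyruvate and of the shuttles that carry reducing equivalents into mitochondria. They were taken by symbol from a named list, with no cut on measured values. The list was chosen with earlier results of these data known. All 33 were found among the 46983 genes of the count tables. The study profiled single cells of the endocrine pancreas at postnatal day 9 after loss of Isl1, a LIM-homeodomain transcription factor of islet cells. The control library came from Neurod1 Cre/+; Isl1f/+ mice and the mutant library, Isl1CKO, from Neurod1 Cre/+; Isl1f/f mice, so both carried a Cre under the control of Neurod1, a gene of the endocrine lineage, and at least 1 floxed Isl1 allele, and neither is wild type. Each genotype is 1 library in which 6 samples were pooled, of tdTomato+ islet cells sorted by flow cytometry after a dissociation with actinomycin D, an inhibitor of transcription. With 1 library per genotype there is no replicate error and no test was possible: the intervals below are 95% intervals for counting error only.

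Glycolysis splits glucose into pyruvate in the cytosol, and pyruvate then either becomes lactate, enters the mitochondrion as acetyl groups, or is carboxylated. Beta cells sense glucose through this route: glucokinase, a hexokinase with low affinity, sets the rate, while the high-affinity hexokinases, lactate dehydrogenase A and the monocarboxylate transporter MCT1 are known to be kept low, and the glycerol phosphate and malate-aspartate shuttles return the NADH of glycolysis to the respiratory chain. Alpha and delta cells use the same core enzymes with other settings of these branch points.

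The control library held 2504 cells with 6854 or more unique molecular identifiers (UMIs), and the Isl1CKO library 3020 cells with 4882 or more, with medians of 22638.5 and 24906.5 UMIs per cell. Cells were placed in classes by the hormone or marker they held. The insulin class (insulin genes at 20% or more of a cell's UMIs) had 898 control and 383 Isl1CKO cells. The Gcg class (10% or more) had 617 control cells and the Sst class (5% or more) had 539 control cells. In Isl1CKO, 1445 cells formed a Ttr class (Ttr, a carrier protein of alpha cells and liver, at 5% or more) and 2035 formed a Fev class (3 or more UMIs of Fev, a factor of endocrine progenitors and serotonin cells). The Ttr and Fev classes shared 1031 cells, and the insulin class shared 145 with the Fev class. These are ranges of a measure and not cell types. They held the markers their names lead one to look for in part: Slc2a2, the beta-cell glucose transporter, stood at 1181 UMIs per 1000000 in the control and at 708 in the Isl1CKO insulin class, and Irx1, an alpha-cell factor, at 235 in the Gcg class and 286 in the Ttr class. Isl1 itself read 550 in control and 565 in Isl1CKO cells. A 3′ tag need not lie in the deleted part of the gene, so these counts do not check the deletion. Called cells of the libraries shared 4 barcodes.

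Because hormones and Ttr together took 69.0% of the UMIs of control insulin cells and 11.8% of those of the Ttr class, levels are given per 1000000 UMIs outside 8 hormone genes and Ttr, written CPM. Each UMI is 1 tag at the 3′ end of a transcript, so levels of different genes need no scaling to length. Reads in sequence shared with other genes could still be split or lost for some. A ratio is the log2 ratio of the summed levels of 2 classes relative to the median gene of that comparison. A gene was compared when it had at least 50 UMIs on the side with the higher CPM, and it is counted as higher or lower at 2-fold or more. In sums of cells, fewer cells that express a gene and less RNA per cell cannot be told apart.

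The genes spread over the 6 classes to different degrees. Gapdh, which oxidises glyceraldehyde 3-phosphate, was between 465 CPM (control Sst class) and 1122 CPM (Ttr class). Pkm, pyruvate kinase, was between 351 CPM (Ttr class) and 630 CPM (control insulin class). Dlat, a subunit of pyruvate dehydrogenase, stayed between 46.5 and 52.6 CPM in all 6 classes. Fbp1, fructose-1,6-bisphosphatase, which runs the phosphofructokinase step backwards, ranged from 10.0 CPM in control insulin cells to 329 CPM in the Ttr class. Pcx, pyruvate carboxylase, ranged from 2.39 CPM (Ttr class) to 59.5 CPM (control insulin class). The 33 genes together took 3856 CPM in control insulin cells, 3310 in Isl1CKO insulin cells, 3368 in the Gcg class, 3453 in the Sst class, 4646 in the Ttr class and 4139 in the Fev class. The Ttr class was the highest of the 6 and the Isl1CKO insulin class the lowest.

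**Figure D1:**
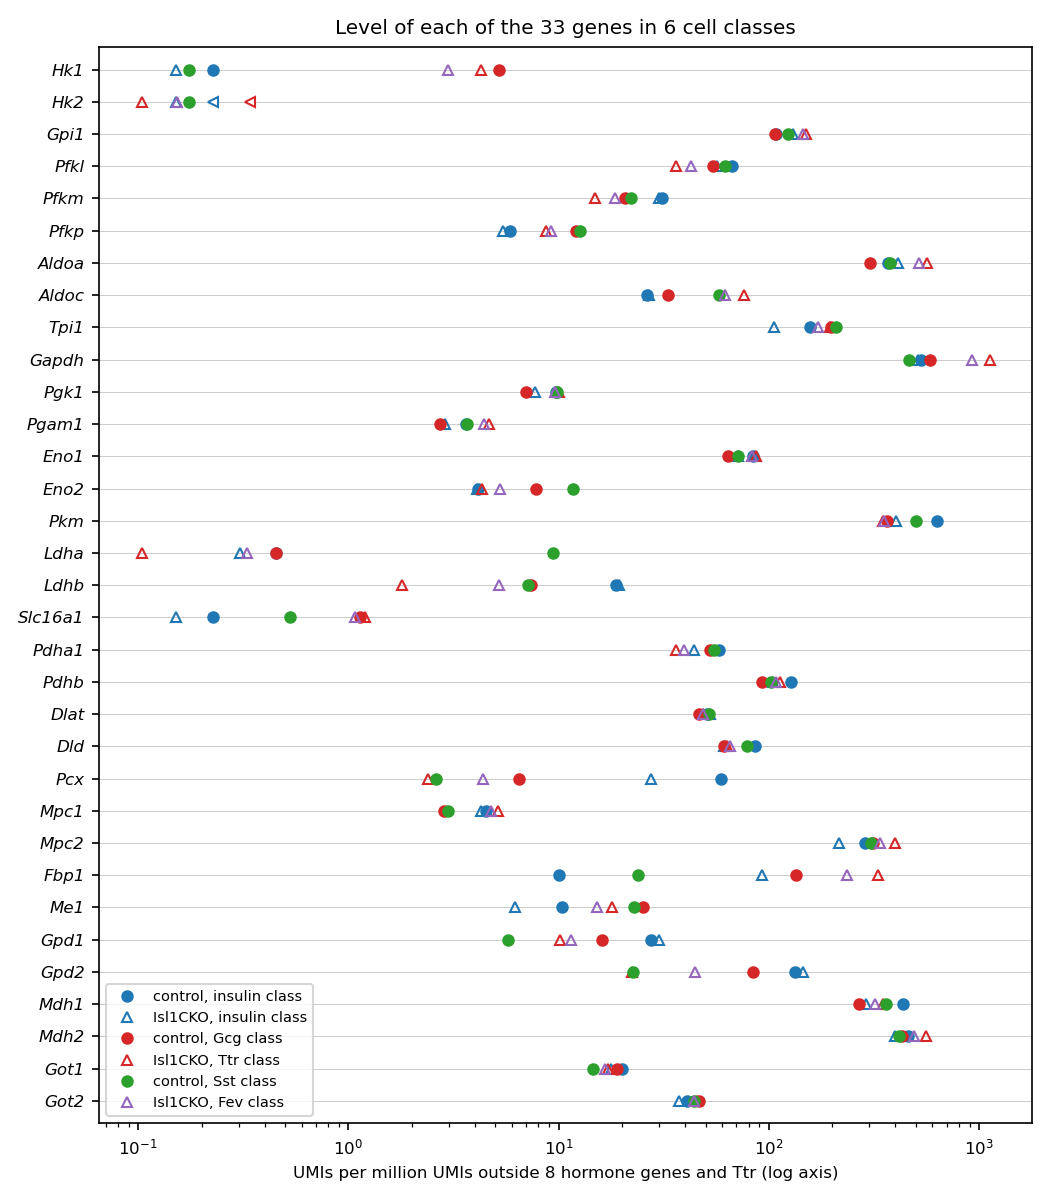
Level of each of the 33 genes (rows, in pathway order) in 6 cell classes, in UMIs per 1000000 outside 8 hormone genes and Ttr on a log axis. Circles are control classes, open upright triangles Isl1CKO classes, and left-pointing triangles mark 0 UMIs, drawn at the level of 3 UMIs. Fbp1, Pcx, Gpd2, Ldha, Ldhb and Hk1 spread widely, while Dlat stays between 46.5 and 52.6 CPM.

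The comparison of Isl1CKO with control insulin cells asks how the pathway stood in cells that still made insulin. Of the 33 genes 28 were compared, and 1 of them, Fbp1, was at least 2-fold higher in Isl1CKO, where 4.76% of all 10652 genes compared were that much higher. None was at least 2-fold lower, where 4.37% of all genes were. The median ratio of the 28 genes was -0.01, and the quartiles of all genes were -0.25 and 0.28. The raw scale differed by -0.14 (log2) for the median gene, which the ratios take out. Hk1, Hk2, Ldha, Slc16a1 and Pgam1 had too few UMIs to compare.

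Fbp1 carried the largest difference. Control insulin cells held 133 Fbp1 UMIs, or 10.0 CPM (8.40 to 11.9), and Isl1CKO insulin cells held 610, or 92.5 CPM (85.3 to 100.2). The log2 ratio was 3.34 (3.07 to 3.62). In the other classes Fbp1 stood at 134 CPM in the control Gcg class, at 23.8 CPM in the control Sst class, at 329 CPM in the Ttr class and at 235 CPM in the Fev class. Control insulin cells were the lowest of the 6 classes, and the Isl1CKO insulin class lay below the Gcg class. The insulin classes differed in depth, with medians of 48339.5 UMIs in control and 38693 in Isl1CKO. After each cell was thinned to 5000 UMIs, 1.89% (1.11 to 3.01) of control and 14.1% (10.8 to 18.0) of Isl1CKO insulin cells held an Fbp1 UMI, and unthinned shares were 7.91% and 46.2%. Collagen-rich cells, which should lack the gene, held none: 0 of 45 control cells (median 8121 UMIs), which allows up to 6.67%, and 0 of 22 Isl1CKO cells (median 7876.5 UMIs), which allows up to 13.6%.

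Values that moved with the Fbp1 difference are given with it. The Isl1CKO insulin class held genes of the Ttr class at a low level: as a share of their Ttr-class level, Irx1 stood at 4.13%, Irx2 at 4.95%, Gc at 5.33%, Slc38a5 at 5.66%, Pdk4 at 6.19% and Ttr at 9.49%. Fbp1 stood at 28.1%, with a counting limit of at most 30.4%. These comparison genes were picked with their values known. In insulin cells without 3 Fev UMIs (238 cells) Fbp1 was at 76.6 CPM, and in those with Fev (145 cells) at 113 CPM. Xist without a Y-linked UMI marked 20.9% of control and 57.7% of Isl1CKO insulin cells. Within cells that had a Y-linked UMI and no Xist the Fbp1 ratio was 3.92. Cells with over 2 times their library's median UMIs made up most of the control class, and without them (353 control and 334 Isl1CKO cells) it was 2.33 (1.99 to 2.68), 5.03-fold.

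**Figure D2:**
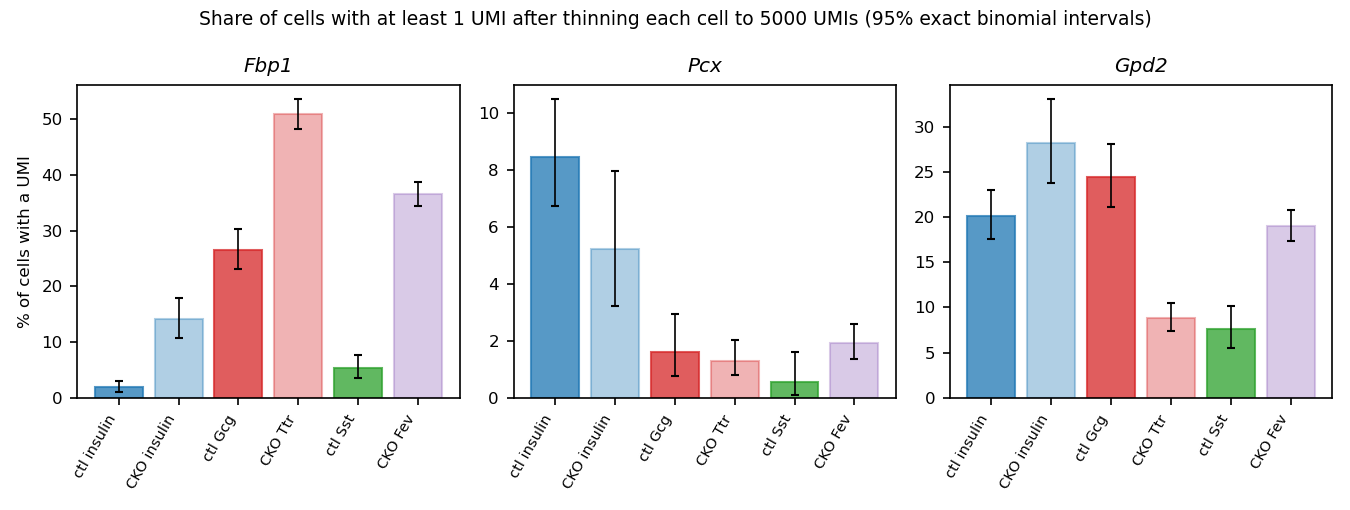
Share of cells with at least 1 UMI of Fbp1, Pcx or Gpd2 after thinning every cell to 5000 UMIs, by class (control, filled, and Isl1CKO, pale), with exact binomial 95% intervals. Fbp1 was found in 1.89% of control and 14.1% of Isl1CKO insulin cells, and in 50.9% of the Ttr class.

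The sequence before the Fbp1 start is shown beside that of Pcx, which was highest in insulin cells, and of Ldha, which was nearly absent from them. RefSeq promoters were matched for 32 of the 33 genes (47 start sites, build GRCm38.p6). Shown are the 250 bases before the first listed start, 5′ to 3′ on the gene's strand, Fbp1 at chr13:62888283-62888532 (minus strand), Pcx at chr19:4510222-4510471 and Ldha at chr7:46845554-46845803 (both plus strand). Capitals mark ACGTG on either strand, the core of the hypoxia response element, and CACGTG, the E-box read by MYC and ChREBP, which holds ACGTG on both strands.
Fbp1: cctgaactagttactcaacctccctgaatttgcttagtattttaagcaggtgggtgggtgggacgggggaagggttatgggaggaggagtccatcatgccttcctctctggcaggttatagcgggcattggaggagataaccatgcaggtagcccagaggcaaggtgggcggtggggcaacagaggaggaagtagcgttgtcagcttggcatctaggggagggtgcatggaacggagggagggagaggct
Pcx: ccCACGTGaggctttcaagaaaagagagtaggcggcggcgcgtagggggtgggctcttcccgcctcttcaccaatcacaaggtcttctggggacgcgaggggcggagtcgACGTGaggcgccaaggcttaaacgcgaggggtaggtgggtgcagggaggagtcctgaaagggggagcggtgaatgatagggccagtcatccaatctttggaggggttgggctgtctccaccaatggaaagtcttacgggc
Ldha: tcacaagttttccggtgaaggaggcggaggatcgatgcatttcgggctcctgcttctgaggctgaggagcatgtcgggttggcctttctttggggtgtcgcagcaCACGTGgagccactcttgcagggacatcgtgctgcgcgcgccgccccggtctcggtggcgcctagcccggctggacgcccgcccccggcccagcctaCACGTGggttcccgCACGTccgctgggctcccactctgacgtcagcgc
Counted over both strands, the Fbp1 window held 0 ACGTG, the Pcx window 3 and the Ldha window 5, of which CACGTG accounted for 1 site in Pcx and 2 in Ldha. ACGTG was in 16.6% of all 32841 promoters of this length and in 15 of the 47 of the 33-gene list. TAAT, the core read by many homeodomain factors, was in 54.9% of all and in 18 of the 47, and in none of the 3 windows shown. Pcx and Ldha each have another listed start, not shown, and the window before it held 0 ACGTG and 1 TAAT in both genes. A match describes letters, not a binding site.

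Pcx gave the lowest ratio of the insulin comparison. It had 788 UMIs in control insulin cells, 59.5 CPM (55.4 to 63.8), and 181 in Isl1CKO insulin cells, 27.5 CPM (23.6 to 31.8). The log2 ratio was -0.98 (-1.22 to -0.74), just inside 2-fold. It was -0.79 with insulin at 50% to 70% of UMIs in both libraries and -1.24 within cells that held a Y-linked UMI and no Xist. The other classes held far less: 6.46 CPM in the Gcg class, 2.62 in the Sst class, 2.39 in the Ttr class and 4.38 in the Fev class. Both insulin classes were thus above every other class. Pcx lies at chr19:4510472-4621752, and it feeds oxaloacetate to the citric acid cycle, a route prominent in beta cells.

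The glycerol phosphate shuttle was at similar levels in both insulin classes. Gpd2, its mitochondrial dehydrogenase, stood at 134 CPM in control and at 146 CPM in Isl1CKO insulin cells (log2 ratio 0.26, 0.15 to 0.38). Gpd1, its cytosolic partner, stood at 27.5 and 29.9 CPM (0.26, 0.00 to 0.51). Among the glycolytic enzymes, Pkm read 630 CPM in control and 400 CPM in Isl1CKO (-0.52, -0.58 to -0.46) and Tpi1, triosephosphate isomerase, 157 and 105 CPM (-0.44, -0.57 to -0.31). Mdh1, the cytosolic malate dehydrogenase of the malate-aspartate shuttle, read 435 and 290 CPM (-0.45, -0.52 to -0.37). Me1, malic enzyme, which turns malate back into pyruvate and makes NADPH, read 10.4 and 6.22 CPM (-0.61, -1.15 to -0.10). In the other direction Gpi1, glucose phosphate isomerase, read 108 and 130 CPM (0.41) and Aldoa, aldolase A, 369 and 410 CPM (0.29). All of these were inside 2-fold, but Me1 was at -1.28 without cells of several classes and at -1.61 with insulin at 50% to 70% of UMIs in both libraries. The remaining 18 genes compared had ratios between -0.35 and 0.18.

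**Figure D3:**
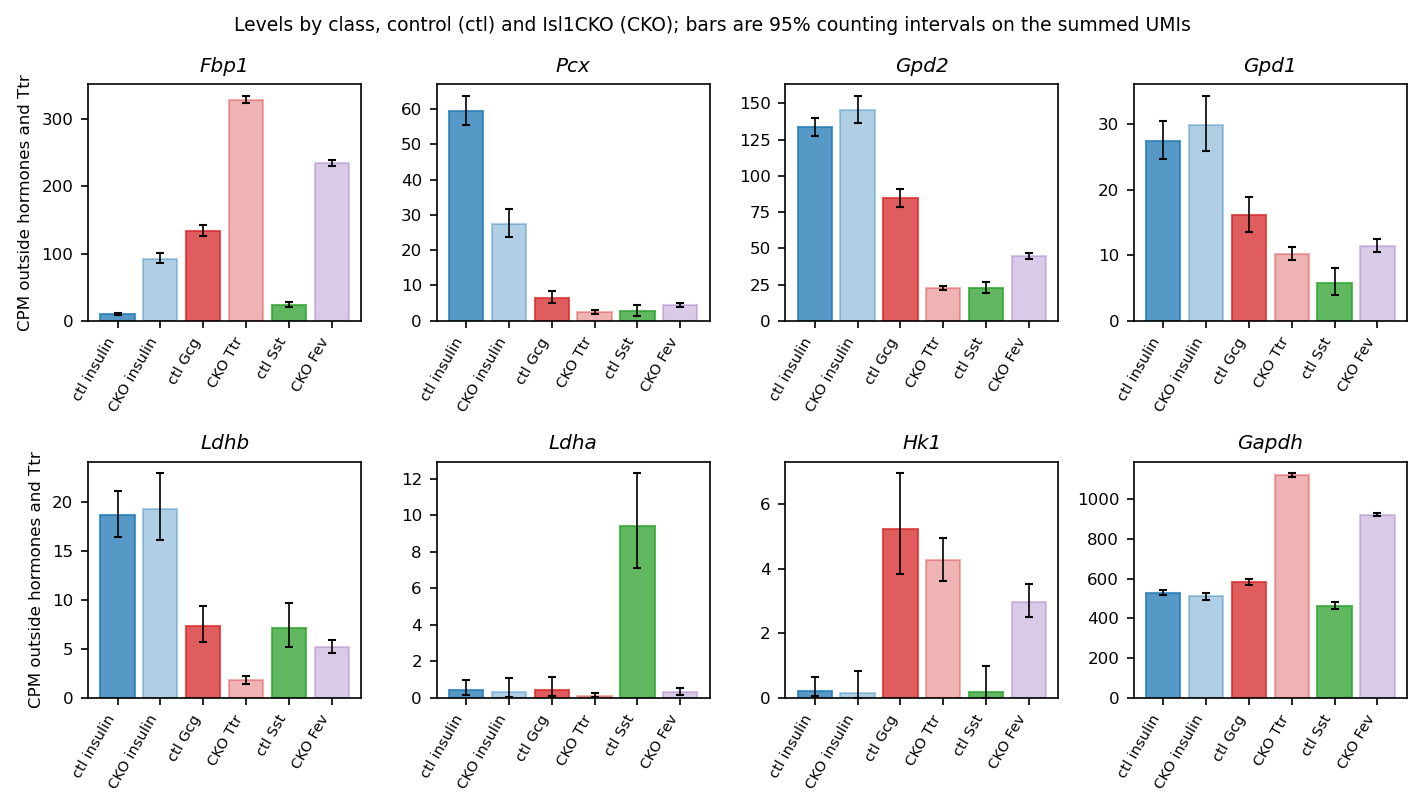
Summed level of 8 genes in each class (CPM outside hormones and Ttr, axes from 0; lines are 95% Poisson intervals). Fbp1 is 10.0 CPM in control and 92.5 CPM in Isl1CKO insulin cells, Pcx is 59.5 and 27.5 CPM, and Ldha is above 1 CPM only in the control Sst class among these 6.

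The genes known to be kept low in beta cells were low in both insulin classes. Ldha, which turns pyruvate into lactate, had 6 UMIs in 898 control insulin cells (0.45 CPM) and 2 in 383 Isl1CKO insulin cells (0.30 CPM). Hk1, a high-affinity hexokinase, had 3 and 1 UMIs. Hk2, another, had 0 and 1, and 3 UMIs in the control class would be 0.23 CPM. Slc16a1, which encodes MCT1, had 3 and 1. At these counts a difference between the libraries was not detectable. Collagen-rich cells of the same libraries, 45 in control and 22 in Isl1CKO, held Ldha at 247 and 177 CPM, Hk1 at 34.6 and 48.2 CPM and Slc16a1 at 18.4 and 21.4 CPM. After thinning, 71.1% and 77.3% of the collagen-rich cells held an Ldha UMI, against 0% of both insulin classes, which allows up to 0.334% and 0.783%.

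Endocrine classes other than insulin held some of these genes. Hk1 stood at 5.21 CPM in the control Gcg class (46 UMIs), at 4.25 CPM in the Ttr class (164 UMIs) and at 0.17 CPM in the Sst class (1 UMI). Ldha stood at 9.44 CPM in the Sst class (54 UMIs in 43 of its 539 cells), at 0.45 CPM in the Gcg class and at 0.10 CPM in the Ttr class (4 UMIs each). Control barcodes of at most 100 UMIs, which sample free RNA, held Ldha at 9.02 CPM. The mesenchymal marker list, all 8 genes of it detected, summed to 57.3 CPM in the Sst class and to 63.3 CPM in the Gcg class with its 4 Ldha UMIs. The erythroid list also summed lower in the Sst class (1.92 and 2.49 CPM). Other lists summed higher in the Sst than in the Gcg class: acinar 483 and 136 CPM, ductal 478 and 317, immune 249 and 87.6. The Schwann list read 28.5 and 17.4 CPM and the endothelial list 10.7 and 4.53. The source of the Ldha UMIs was not tested. The Ldha ratio of Sst to insulin cells lay between 4.31 and 5.39 over the alternatives relative to the median gene that had enough UMIs, and was 5.54 on total CPM. Hk2 had at most 7 UMIs in any of the 6 classes, and Slc16a1 at most 49.

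The control classes set out how the pathway differs among endocrine cells with Isl1. Against control insulin cells, the Gcg class had 28 of the genes compared, of which 3 were at least 2-fold higher (9.46% of all 11267 genes were) and 2 lower (8.09% were). Fbp1 was higher, at 134 against 10.0 CPM (log2 ratio 3.76, 3.50 to 4.03), and the ratio was 2.86 without cells over 2 times the library's median UMIs. Me1 was at 25.3 against 10.4 CPM (1.31, 0.99 to 1.62), and Pfkp, the platelet-type phosphofructokinase, at 12.1 against 5.89 CPM (1.07, 0.63 to 1.51). Pcx was at 6.46 against 59.5 CPM (-3.18, -3.59 to -2.79) and Ldhb, lactate dehydrogenase B, at 7.36 against 18.6 CPM (-1.31, -1.73 to -0.91). Within cells that had a Y-linked UMI and no Xist, Pfkp (0.97) and Ldhb (-0.98) were inside 2-fold. The median over the 28 genes was -0.19, and the quartiles of all genes were -0.36 and 0.38. On total CPM, hormones included and without the median gene as reference, the split was 10 higher and 1 lower.

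The Sst class was set against control insulin cells in the same way. Of 29 genes compared, 6 were at least 2-fold higher (9.1% of all 10677 genes) and 4 lower (6.98%), and on total CPM 17 and 3. Ldha was 9.44 against 0.45 CPM (log2 ratio 4.38, 3.17 to 5.89). Eno2, the neuronal enolase, was 11.7 against 4.15 CPM (1.497), Aldoc, aldolase C, 57.9 against 26.3 CPM (1.14), Me1 22.9 against 10.4 CPM (1.14), and Pfkp 12.6 against 5.89 CPM (1.10). Fbp1 was 23.8 against 10.0 CPM (1.24, 0.89 to 1.60), and the ratio was 0.33 without cells over 2 times the library's median UMIs. The glycerol phosphate shuttle genes were low: Gpd2 was 22.6 against 134 CPM (-2.57, -2.84 to -2.31) and Gpd1 5.77 against 27.5 CPM (-2.25, -2.81 to -1.74). The malate-aspartate shuttle genes were inside 2-fold: Mdh1 at -0.28, Mdh2 at -0.14, Got1 at -0.46 and Got2 at 0.11. Pcx was 2.62 against 59.5 CPM (-4.50, -5.35 to -3.77, and -5.16 with each cell thinned) and Ldhb 7.17 against 18.6 CPM (-1.38). Both glycerol phosphate dehydrogenases and pyruvate carboxylase were therefore at their highest in insulin cells among the control classes. Sst cells that also held Ppy at 5% or more (188 cells) and Sst cells without it (351) held Gpd2 at 17.3 and 25.2 CPM and Ldha at 11.5 and 8.39 CPM.

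**Figure D4:**
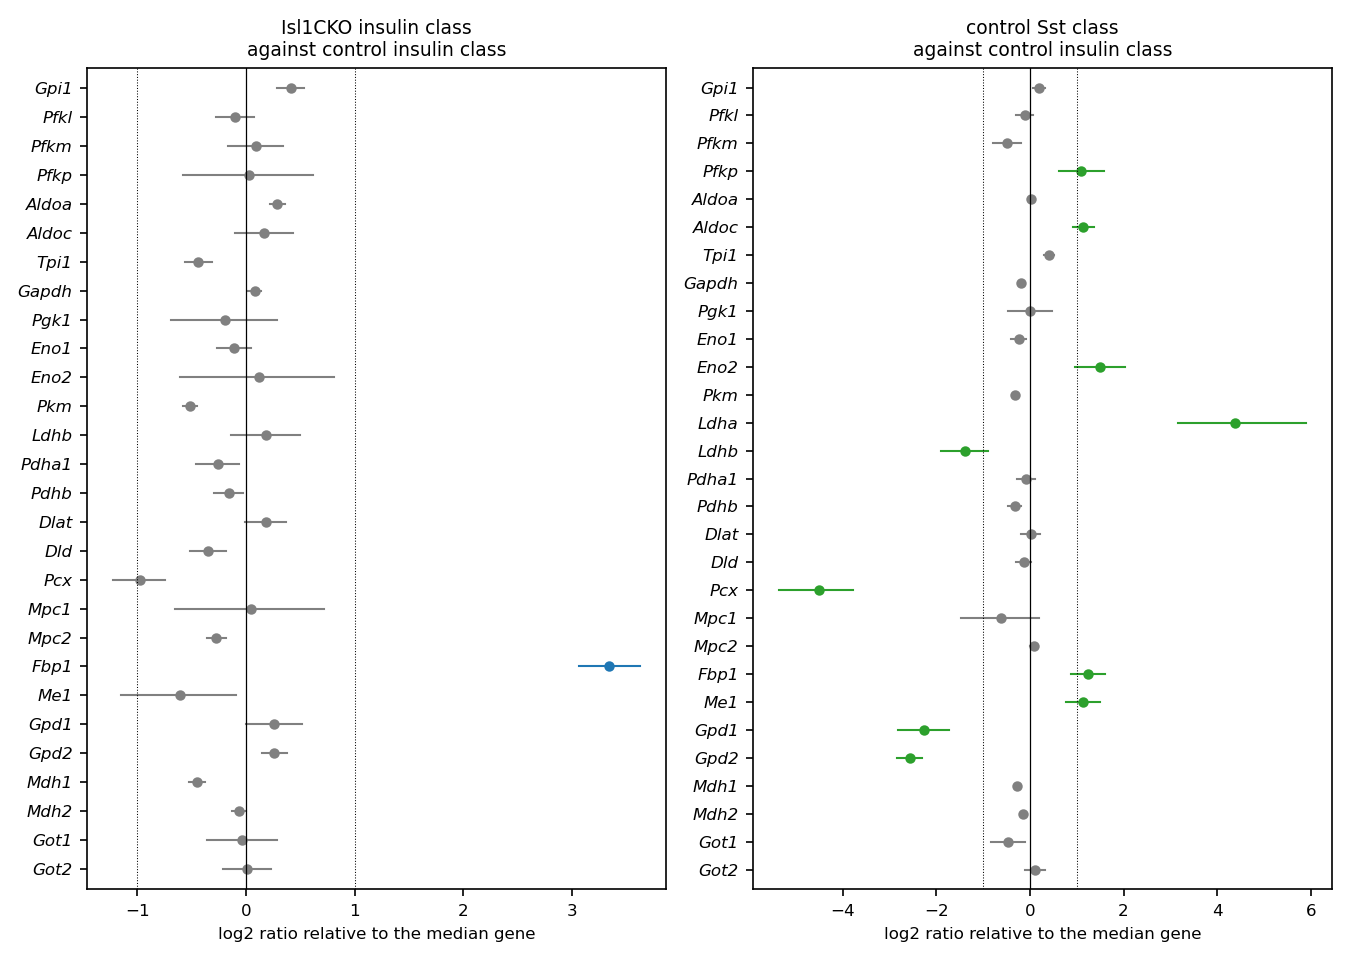
Log2 ratio relative to the median gene for the genes with enough UMIs to compare, Isl1CKO against control insulin class (left) and control Sst against control insulin class (right). Lines are 95% counting intervals, dotted lines mark 2-fold, and coloured points pass it: Fbp1 alone on the left at 3.34, and 10 genes on the right from Pcx at -4.50 to Ldha at 4.38. The control insulin class enters both panels, so they are not independent.

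The Ttr class is the large group of Isl1CKO cells that held alpha-cell markers, with 2 cells that reached the glucagon limit of the Gcg class, and it is set here against the control Gcg class. Of 29 genes compared, 6 were at least 2-fold higher (9.06% of all 11533 genes) and 3 lower (7.43%). The median ratio was 0.33, the quartiles of all genes were -0.44 and 0.45, and the median gene itself was shifted by -0.28. Without the median gene as reference the split was 2 higher and 3 lower. The higher genes lay in mid-glycolysis apart from Fbp1 and a pyruvate carrier. Gapdh read 1122 against 584 CPM (log2 ratio 1.22, 1.18 to 1.26) and Aldoa 565 against 302 CPM (1.18, 1.12 to 1.24). Aldoc read 76.3 against 32.97 CPM (1.49, 1.31 to 1.67) and Fbp1 329 against 134 CPM (1.57, 1.49 to 1.66). Pgam1, phosphoglycerate mutase, read 4.64 against 2.72 CPM (1.05, 0.43 to 1.73) and Mpc1, a subunit of the mitochondrial pyruvate carrier, 5.13 against 2.83 CPM (1.13, 0.53 to 1.80), on 24 and 25 UMIs in the control class. The intervals of these last genes reach well inside 2-fold.

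The lower genes were Gpd2, Ldhb and Pcx. Gpd2 read 22.4 against 84.4 CPM (-1.64, -1.78 to -1.50), Ldhb 1.79 against 7.36 CPM (-1.76, -2.27 to -1.25) and Pcx 2.39 against 6.46 CPM (-1.16, -1.65 to -0.66). In the control Sst class Gpd2 was at 22.6 CPM. The Pcx ratio was -0.56 without cells in several classes. Control cells with Ttr at 5% or more (113 cells) gave a second reference, against which 4 of 22 genes compared were at least 2-fold higher (8.69% of all 8098 genes) and 1 lower (5.89%). Against them Fbp1 read 329 against 147 CPM (1.08, 0.90 to 1.26), Aldoc 76.3 against 27.8 CPM (1.37) and Gpd2 22.4 against 62.0 CPM (-1.56). Pgam1 and Mpc1, the other higher genes, had intervals that reached below 0. Gapdh (0.70) and Aldoa (0.68) were inside 2-fold against these cells. Cycling cells made up 13.2% of the Ttr class and 9.40% of the Gcg class. Without them Pgam1 and Mpc1 stood at 0.99 each, and Gapdh, Aldoa, Aldoc, Fbp1, Ldhb, Pcx and Gpd2 kept their calls. Xist without a Y-linked UMI marked 39.1% of the Ttr class and 20.7% of the Gcg class. Within cells that had a Y-linked UMI and no Xist, Mpc1 was at 0.87, inside 2-fold.

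**Figure D5:**
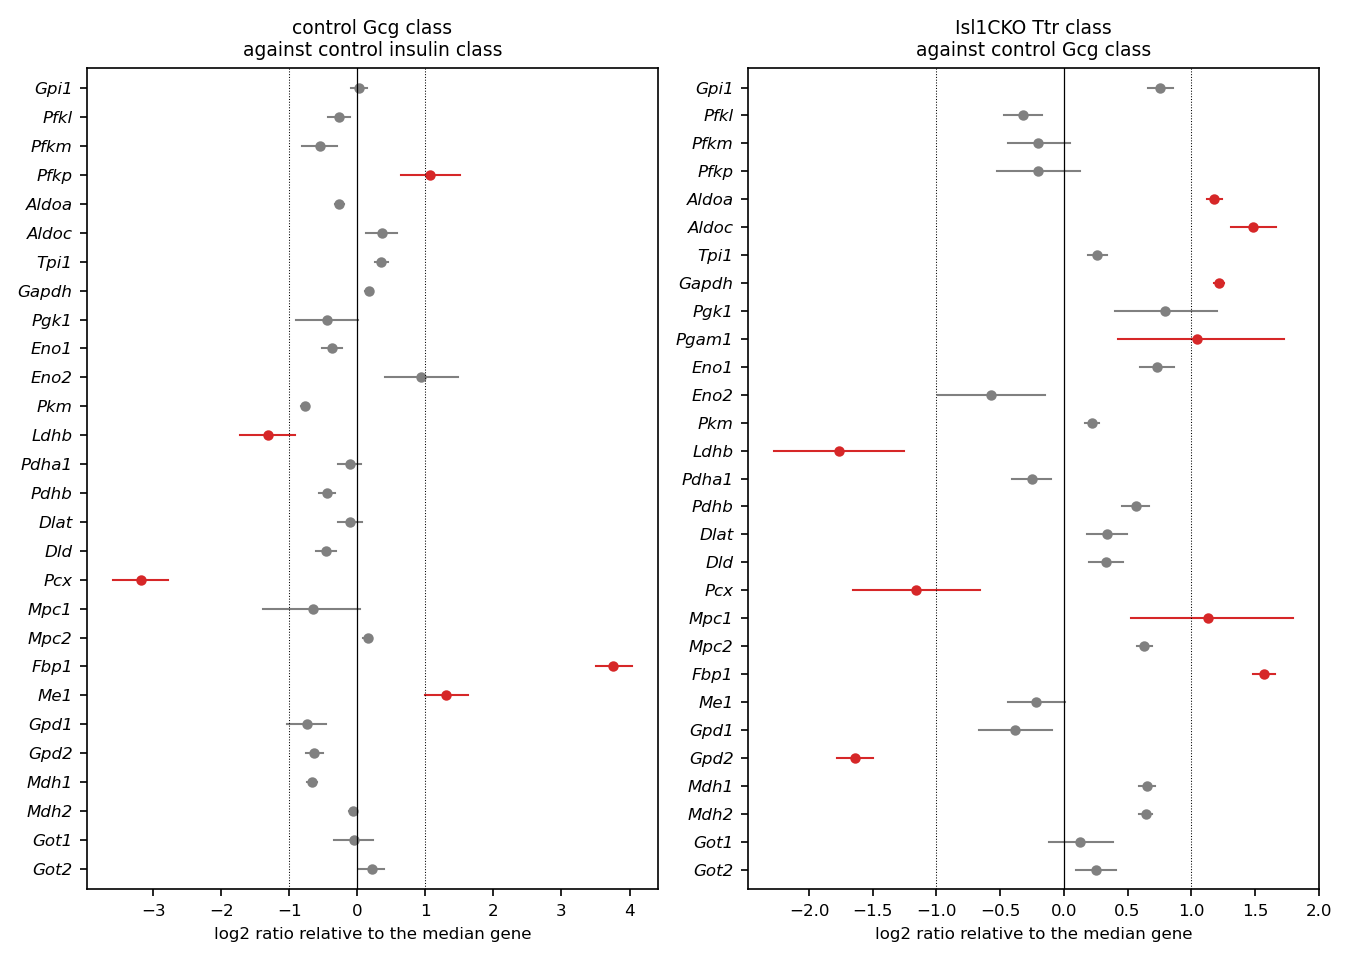
Log2 ratio relative to the median gene for the genes with enough UMIs to compare, control Gcg against control insulin class (left) and Isl1CKO Ttr against control Gcg class (right), with 95% counting intervals and dotted lines at 2-fold; the axes differ. On the left Fbp1 is highest at 3.76 and Pcx lowest at -3.18. On the right Fbp1 is highest at 1.57 and Ldhb lowest at -1.76. The control Gcg class enters both panels, so they are not independent.

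The Ttr class was also set against insulin cells of its own library. Of 30 genes compared, 7 were at least 2-fold higher (12.9% of all 11385 genes) and 4 lower (10.3%), and on total CPM 20 and 3. The higher genes were Hk1, Aldoc, Gapdh, Fbp1, Me1, Tpi1 and Mpc2, a pyruvate carrier subunit. Fbp1 read 329 against 92.5 CPM (1.95, 1.83 to 2.07), and 1.17 within cells that had a Y-linked UMI and no Xist. Hk1 read 164 UMIs against 1 (4.93, 2.43 to 10.2). Under 3 alternatives the insulin class was left with no Hk1 UMI, and the log2 ratio was then set against 3 UMIs. It was 1.66 (lower bound 1.33) within cells that had a Y-linked UMI and no Xist. With class limits doubled it was 2.77 (lower bound 2.44), and without cells over 2 times the library median 3.09 (lower bound 2.78). As a mean over cells the Hk1 log2 ratio was 6.22. Tpi1 and Mpc2 sat at 1.00 and 1.01, on the edge of the rule. The lower genes were Pcx (2.39 against 27.5 CPM), Ldhb (1.79 against 19.3 CPM), Gpd2 (22.4 against 146 CPM) and Gpd1 (10.2 against 29.9 CPM).

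The Fev class, which shares most of the Ttr class, differed from it at 1 of 30 genes compared. Ldhb was 5.19 against 1.79 CPM (1.43, 1.03 to 1.84), where 4.01% of all 13257 genes were at least 2-fold higher and 0.0302% lower. With the shared cells left out, 1004 Fev cells below the Ttr level and 414 Ttr cells with under 3 Fev UMIs gave 2 genes higher (8.93% of 11540 genes) and 5 lower (7.19%). Ldhb read 10.9 against 1.72 CPM (2.38, 1.66 to 3.19) and Gpd2 83.0 against 23.7 CPM (1.53, 1.33 to 1.73). Fbp1 read 89.8 against 351 CPM (-2.25, -2.34 to -2.16), Aldoc 35.5 against 71.3 CPM (-1.29), Gapdh 531 against 1025 CPM (-1.23), Mpc2 228 against 384 CPM (-1.03) and Me1 10.2 against 16.9 CPM (-1.01). With insulin cells also left out (865 Fev cells), 2 genes were higher (8.44% of 11344 genes) and 4 lower (7.22%), and Fbp1 stood at 88.2 CPM, Gpd2 at 74.8 CPM and Ldhb at 10.0 CPM in the Fev cells. Gapdh and Fbp1 were therefore near the Isl1CKO insulin class (511 and 92.5 CPM) in Fev cells without Ttr.

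Over all cells of each library, which differ in cell makeup, Fbp1, Pcx and Ldha passed 2-fold. Of 31 genes compared, 1 was at least 2-fold higher in Isl1CKO (5.28% of all 14128 genes) and 2 lower (6.97%), and on total CPM 8 and 2. Fbp1 stood at 49.6 CPM in control cells and at 236 CPM in Isl1CKO cells (2.49, 2.42 to 2.57). Pcx was 26.8 and 5.84 CPM (-1.95, -2.13 to -1.78). Insulin cells, the class with the highest Pcx, were 35.9% of control and 12.7% of Isl1CKO cells. The Pcx ratio was -1.17 without cells over 2 times the library median. Ldha was 9.27 CPM (310 UMIs) and 1.24 CPM (79 UMIs), a ratio of -2.66 (-3.03 to -2.30). Of the 310 control UMIs, 54 were in the Sst class, 107 in collagen-rich cells and 246 in cells of no class, sets that can overlap. Without cells holding markers of other cell types the ratio was -3.14, and as a mean over cells -1.91.

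Cycling cells, chosen by their cell-cycle genes and not by the metabolic ones, held the aldolases at a lower level in each class looked at. In control insulin cells Aldoa was 98.8 CPM in 56 cycling and 390 CPM in 842 other cells (log2 ratio -1.78, -2.09 to -1.48). In the control Gcg class it was 87.9 CPM in 58 cycling and 331 CPM in 559 other cells (-1.65, -1.96 to -1.35), and in the Ttr class 342 CPM in 191 and 608 CPM in 1254 (-0.73, -0.79 to -0.66), inside 2-fold. Aldoc was 7.36 and 27.7 CPM (-1.71), 15.9 and 35.3 CPM (-0.89), and 37.1 and 83.7 CPM (-1.07) in the same order. Tpi1, which acts on a product of aldolase, read 255 and 149 CPM (0.98), 330 and 178 CPM (1.15), and 278 and 179 CPM (0.74). In control insulin cells 3 of 23 genes compared were at least 2-fold lower in cycling cells (6.7% of all genes) and 0 higher (4.85%), the third being Gpd1 at 6.30 against 29.1 CPM on 6 UMIs. In the Gcg class 2 of 25 were lower (4.85%), Aldoa and Eno2, and 1 higher (7.87%), Tpi1. Eno2 was at 2.81 CPM (0.58 to 8.20) on 3 UMIs in the cycling cells, against 8.51 CPM in the others. In the Ttr class 1 of 27 was lower (1.55%), Aldoc, and 0 higher (6.31%).

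Isozyme shares describe which gene supplied the UMIs of each step, in RNA and not in enzyme. Isozymes may not be counted equally well. In the last 1000 bases, 66.8% of the 60-base words of Eno1 also occur in another gene, against 0% of Eno2. For Ldhb the share is 27.2%, against 8.61% for Ldha. The Eno2 and Ldha shares could therefore be too high. Glucokinase, which is not one of the 33, took 99.7% of hexokinase UMIs in both control and Isl1CKO insulin cells (99.74% and 99.65%), 89.1% in the Gcg class and 85.1% in the Ttr class, where Hk1 took 11.0% and 14.6%. Ldha took 56.8% of lactate dehydrogenase UMIs in the Sst class, 2.37% in control and 1.55% in Isl1CKO insulin cells, 5.80% in the Gcg class and 5.48% in the Ttr class. Pfkp took 5.68% and 5.92% of phosphofructokinase UMIs in the control and Isl1CKO insulin classes and 13.0% to 14.6% in the other classes. Mdh1 took 48.6% of malate dehydrogenase UMIs in control insulin cells and 42.0% in Isl1CKO insulin cells, and 38.4% in the Gcg class. Eno2 took 14.1% of enolase UMIs in the Sst class and 4.70% in control insulin cells.

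Other genes of the pathway were taken from a list of 67 that excludes the 33. In Isl1CKO against control insulin cells 2 of 56 compared were at least 2-fold higher (4.76% of all genes) and 4 lower (4.37%). Fbp2, the muscle-type bisphosphatase, read 19.1 against 3.62 CPM and Pdk2, a kinase that switches off pyruvate dehydrogenase, 36.6 against 15.3 CPM. G6pc2, the beta-cell glucose-6-phosphatase subunit, read 299 against 932 CPM, and Pklr and Pdp1 were also lower. In the Ttr class against the Gcg class 5 of 55 were higher (9.06% of all genes), among them Me3, mitochondrial malic enzyme (28.1 against 2.15 CPM), and Bsg, the chaperone of the lactate transporters (3555 against 1228 CPM), and 5 lower (7.43%), among them G6pc2 (8.71 against 69.7 CPM) and Rpia (9.26 against 43.6 CPM). In the control Gcg class against insulin cells 1 of 56 was higher (9.46% of all genes), Pdk4 (109 against 1.51 CPM), and 11 lower (8.09%), led by Slc2a2 (12.1 against 1181 CPM). In the Sst class 1 of 55 was higher (9.1% of all genes), the monocarboxylate transporter Slc16a7 (28.1 against 0.45 CPM), and 7 lower (6.98%). Of 16 hypoxia-responsive genes outside the pathway, none of the 12 compared in insulin cells was 2-fold higher or lower in Isl1CKO. Of all genes, 4.76% and 4.37% were. In the control Gcg against the control insulin class 1 of 12 was higher (9.46% of all genes), Higd1a (375 against 18.1 CPM). In the Ttr against the Gcg class 2 of 12 were lower (7.43%), Mxi1 and Kdm3a. In the Ttr against the Isl1CKO insulin class 1 of 12 was higher (12.9%), Higd1a (240 against 12.4 CPM), and 3 lower (10.3%), Vegfa, Mxi1 and Kdm3a. Over all cells 2 of 14 were lower (6.97%).

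Some of the genes share sequence with processed pseudogenes, so their reads could be split or lost in counting. In the last 1000 bases of the transcript, 66.8% of 60-base words of Eno1 also occur in another gene, 55.6% of Pgk1, 46.8% of Gapdh (in 114 other genes), 30.8% of Pkm, 27.2% of Ldhb, 22.4% of Gpi1 and of Mpc1, 11.4% of Aldoa and 8.61% of Ldha. Their absolute levels are uncertain, which bears on Pgk1, at only 7.02 to 10.1 CPM over the 6 classes. No such word was shared for Fbp1, Pcx, Gpd1, Gpd2, Me1, Hk1, Mdh1, Mdh2, Got1 or Got2. Got1 and Got2, the aspartate aminotransferases of the shuttle, stayed between 14.5 and 19.998 CPM and between 37.5 and 46.5 CPM. Exons of Pfkm overlap those of Gm26513 on the same strand.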

How the data were processed

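The values are raw UMI counts for each gene in each barcode of 2 libraries, as the authors deposited them. GRCm38.p6 is the build, and Seurat 4.3.0.1, STAR 2.7.3a and STARsolo are the tools, that appear in the submitters' processing notes. No annotation release is given in these sources. The control matrix listed 6794880 barcodes, and 2504 that reached 6825 UMIs, the 99th percentile of the top 3000 divided by 10, were taken as cells. All 3020 Isl1CKO barcodes were kept. No doublet caller was run: cells with several hormones, several classes or over 2 times the median UMIs were left out in turn as alternatives.

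UMIs were summed per class with numpy 2.4.6 and scipy 1.17.1. Levels carry Poisson, ratios conditional binomial and shares Clopper-Pearson 95% intervals. A level of 0 was set to 3 UMIs in ratios, and what a share of 0 allows is 3 cells of the total. The ratio step was checked on simulated counts. All 33 genes are named, with up to 12 others per comparison that passed 2-fold, ranked by the interval bound nearest to 0. The genes, classes and lists were chosen with earlier results of these data known. Gene positions are from GENCODE M21. Some genes of the marker and pathway lists are not reported here.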

Additional observations from a re-analysis of the deposited data

Results flagged for a closer look

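Ldha in control barcodes that were not taken as cells stood above its level in the called cells. Barcodes with 1000 UMIs up to the threshold, 872 in all, held 60 Ldha UMIs, or 31.1 CPM (23.7 to 40.0), against 9.27 CPM over the called control cells. These barcodes enter no comparison.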

How the results depend on the processing

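No paired analysis was possible because each genotype is 1 library, and leaving out a replicate was not possible for the same reason. Over 16 planned and 3 added alternatives (a control Ttr reference, insulin at 50% to 70%, and Fev against Ttr cells without shared cells, chosen after seeing the data), none of the 40 ratios at 2-fold or more changed sign where it could be computed, but 35 moved by over 1.5 times or came inside 2-fold under at least 1 alternative, 20 with total CPM set aside, and 12 came inside 2-fold. Of the counts of genes at least 2-fold higher or lower, 192 stayed within 1.5 times and 38 did not; the cause was not tested, beyond the fewer cells or genes that an alternative leaves. In Isl1CKO against control insulin cells the lower count went from 0 to 1 without cells of several hormones, with class limits halved, without cycling cells, on CPM not relative to the median gene, as a mean over cells, thinned, and in Y-linked cells (Pcx), and to 1 without cells of several classes and at 50% to 70% insulin (Me1). In the Sst against the insulin class the higher count of 6 was 3 without cells of several hormones, 3 with limits doubled, 17 on total CPM, 1 thinned and 1 at 200 UMIs or more, and the lower count of 4 was 2 thinned. In the Gcg against the insulin class the higher count of 3 was 10 on total CPM, and the lower count of 2 was 1 on total CPM, thinned and in Y-linked cells. In the Ttr against the Gcg class the lower count of 3 was 1 with limits doubled, thinned, at 200 UMIs or more and against control Ttr cells, and the higher count of 6 was 2 on CPM not relative to the median gene. In the Ttr against the Isl1CKO insulin class the higher count of 7 was 20 on total CPM and 4 at 200 UMIs or more, and the lower count of 4 was 1 thinned and 1 at 200 UMIs or more. In the Fev against the Ttr class the higher count of 1 was 2 with limits doubled, without cells of several classes, without cycling cells, as a mean over cells, thinned and without shared cells, and the lower count of 0 was 4 without cells of several classes and 5 without shared cells. Over all cells the higher count of 1 was 8 on total CPM and 2 thinned. Depth limits Hk1, Hk2, Ldha and Slc16a1 in insulin cells, which hold at most 6 UMIs of each.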

Other observations

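Control cells with Ppy at 5% or more and Sst below it (237 cells), which hold pancreatic polypeptide, the hormone of gamma cells, had Fbp1 at 21.2 CPM, near the Sst class (23.8 CPM), and Hk1 at 5.14 CPM, near the Gcg class (5.21 CPM). Their Gpd2 level of 55.6 CPM lay between those classes, and Me1 was at 28.0 CPM.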
